A study of Xenopus laevis with 8 samples.

Results

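The genes described here are those of the Wnt pathway that act outside the cell, at its surface and in its feedback loops, in Xenopus laevis ectoderm. They were taken from the deposited count table by symbol: every row named as a Wnt ligand (wnt), a frizzled receptor (fzd), a secreted antagonist (sfrp, frzb, dkk, wif1, notum), an R-spondin (rspo), a feedback inhibitor (axin, apcdd1, znrf3, rnf43) or a nuclear factor (lef1, sp5, sp5l). This gave 98 of 45035 genes, 40 ligands, 18 receptors, 19 secreted antagonists, 5 R-spondins, 10 feedback inhibitors and 6 nuclear factors. The frog's genome is a doubled one, so most genes exist as a .L and a .S copy, named after the 2 subgenomes and counted separately. Of the 98 genes, 75 had enough reads to be tested (25 ligands, 17 receptors, 13 antagonists, 4 R-spondins and all 16 feedback inhibitors and nuclear factors). The other 23 had 0 to 41 counts over all libraries, and 2 of them, wnt7c.S and rspo1.S, had none.

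Wnt proteins are secreted lipid-bearing ligands that bind frizzled receptors and their co-receptors; in the canonical branch this stabilises beta-catenin, which works with Lef1 and related factors on target genes, while other Wnts steer cell polarity and movement. Secreted antagonists bind the ligands, strip their lipid or block the co-receptor, R-spondins protect frizzleds from removal by Znrf3 and Rnf43, and feedback inhibitors such as Axin2 are themselves targets of the pathway. In the frog embryo Wnt signalling gives the neural plate and mesoderm posterior character, and anterior neural tissue is rich in Wnt antagonists.

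The material was wild-type ectodermal explants, tissue cut from the embryo and cultured in 0.6 x MMR saline to the early neurula stage, read by paired-end 150 bp RNA sequencing. The 4 groups had 2 libraries each. Libraries 1 and 2 came from controls, 3 and 4 from tissue given Chordin, a secreted BMP antagonist, 5 and 6 from tissue given Flag-tagged Pinhead, a secreted protein of the early embryo, and 7 and 8 from tissue given both. Nothing in the labels tells whether paired libraries stem from different embryo batches, so p-values measure only how far these samples spread, and that spread may be technical. The spread was also uneven between groups. A chi-square between the counts of the 2 libraries, averaged over genes, was 3.076 in control, 3.033 under Chordin, 8.653 under Pinhead and 11.76 under both. The fit shares the spread over all 4 groups, so SEs and p-values do not measure that of the compared groups alone. Libraries held 15052017 to 19677493 counts, and a level of 1 CPM (a count scaled to library size and by TMM) stood for 14.53 to 18.96 counts, so levels well under 1 CPM rest on a handful of reads. CPM is not divided by gene length and is compared here between libraries, not between genes.

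The expressed genes matched the labels. The level of chrd.S was 0.483 to 1.17 CPM in the 4 libraries without Chordin and 793 to 934 CPM in the 4 with it. That of pnhd.L was 0.328 to 2.89 CPM without Pinhead, 1250 and 739 CPM under Pinhead alone and 429 and 486 CPM under both, so the libraries with both proteins held less pnhd.L than those with Pinhead alone. Tissue markers also moved with the groups. Epidermal markers summed to 36100 to 40100 CPM in control and Pinhead libraries and to 7060 to 13500 CPM under Chordin, alone or with Pinhead. Neural plate markers went the other way, 119 to 217 CPM against 1840 to 2940 CPM. Mesoderm markers (t, tbx6, vegt and msgn1) summed to 182 and 264 CPM under Pinhead alone, 2.06 and 9.06 CPM under both and 0.498 to 3.2 CPM elsewhere, and notochord markers to 70.8 and 138 CPM under both and 2.48 to 4.31 CPM elsewhere. Muscle markers summed to 10.1 and 15.2 CPM under Pinhead, 30 and 73.6 CPM under both and 1.03 to 3.33 CPM elsewhere, so libraries 7 and 8 differed from each other in mesodermal, muscle and notochord markers. Multiciliated cell markers summed to 272 and 273 CPM in control, 0.997 and 0.765 CPM under Chordin, 220 and 209 CPM under Pinhead and 34 and 22.3 CPM under both. Endoderm markers summed to 80.3 to 121 CPM without Chordin and 474 to 535 CPM with it. Fewer cells of a type and less RNA per cell cannot be told apart in such bulk samples, and the part that tissue make-up had in the results below was not tested.

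The share of Wnt pathway genes that changed stood above that of all genes where Pinhead was added and near it where Chordin alone was added. It also stood above that of all genes where Chordin was added to Pinhead. Certain genes had enough reads to be tested only through a group where they were high, such as wnt1.L with both proteins and wnt8a.S with Pinhead. For them the filter on reads favours a call. Its part in this contrast, and in the shares by role below, was not tested. Genes were called at an adjusted p under 0.05 in edgeR's quasi-likelihood test over all 23130 genes with enough reads. With Pinhead alone, 24 of the 75 rose and 7 fell against control, where 6.75% and 3.92% of all genes did. Pinhead on top of Chordin raised 31 and lowered 4 against Chordin alone, against 6.46% and 4.25% of all genes. With Chordin alone 32 rose and 20 fell, against 31.7% and 32% of all genes, and with both proteins 47 rose and 14 fell against control, against 33.3% and 32.1% (65.4% in either direction). Compared with Pinhead alone, both proteins raised 35 and lowered 25, where 30.7% and 31% of all genes did (61.7% in either direction); the lower pnhd.L level with both stands beside every such comparison, and its part was not tested. In either direction 80% of the tested members were called for both over Pinhead, and 69.3% for Chordin over control, beside 61.7% and 63.7% of all genes. The number lowered by Pinhead rests on single libraries, at 1, 3 and 4 genes without libraries 1, 2 and 5, and the number raised by Pinhead on top of Chordin was 20 without library 3. The median log2 fold change of the tested members was 0.39 for Pinhead, 0.8 for Chordin, 1.59 for both over control and 1.12 for both over Chordin, beside -0.01, 0, 0.03 and 0.01 over all genes. With genes of very low counts given other values, these medians were 0.34, 0.64, 1.59 and 1.1. A group with 0 counts then gave a bound against 3 counts, and a group with 1 to 3 counts the ratio of counts. Genes with at most 3 counts in both groups were set at 0, so these medians are not lower bounds. Regardless of sign, the median log2 fold change was 2.14 for Chordin and 0.86 for Pinhead, beside 0.77 and 0.27 over all genes. Those sizes use the fitted values, also for genes of very low counts.

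**Figure D1:**
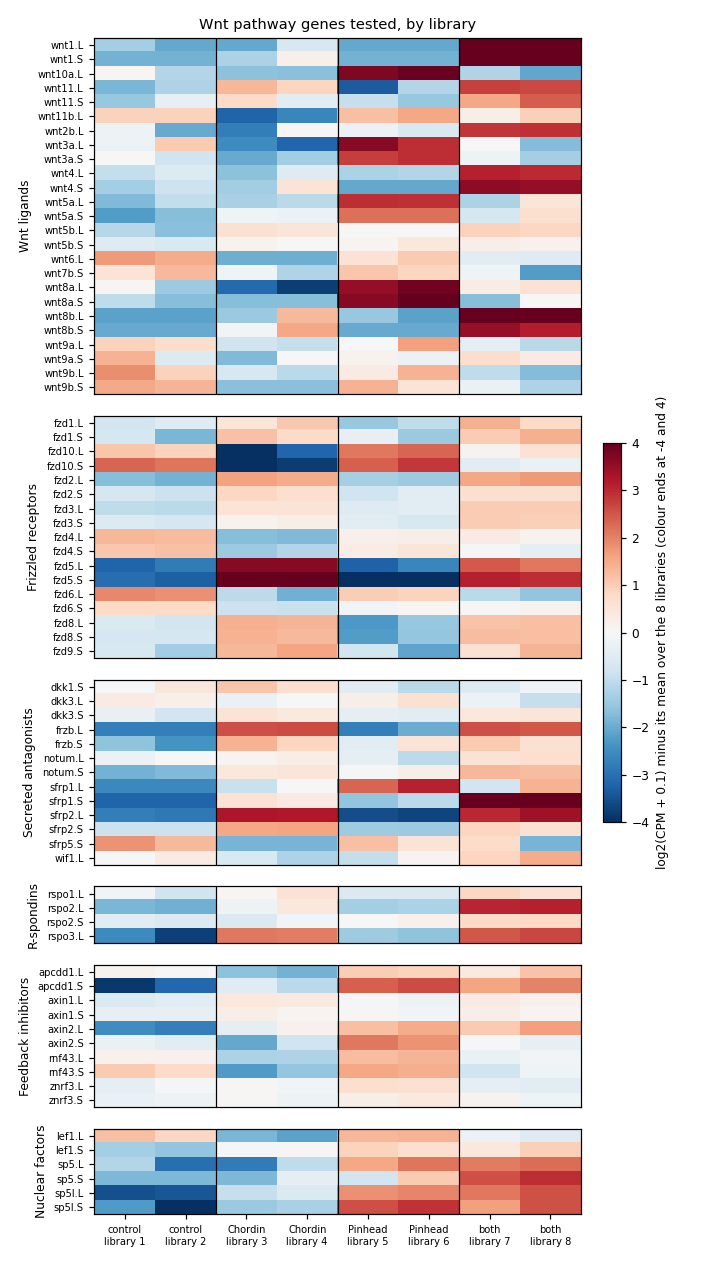
Levels of the 75 tested Wnt pathway genes in each of the 8 libraries, as log2(CPM + 0.1) minus the gene's mean over the libraries, grouped by role; red is above and blue below that mean, and colours end at -4 and 4. Blocks of ligands are red in the Pinhead libraries (wnt3a, wnt5a, wnt8a, wnt10a) or in the libraries with both proteins (wnt1, wnt4, wnt8b), while frizzled genes split into those high and those low with Chordin.

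The ligands fell into sets that were high in different groups. In 10 of the 25 tested ligands both libraries with both proteins lay above all 6 others (40%, against 13.2% of all genes), in 8 both Pinhead libraries did (32%, against 10.9%), in 1 both control libraries did (4%, against 16.9%) and in none did both Chordin libraries. Some of these ligands had enough reads to be tested only through their top group, and 15 ligands were not tested. For example, wnt1.L stood at 0 to 0.164 CPM outside the libraries with both proteins, and wnt8a.S at 0 to 0.224 CPM outside the Pinhead ones. For such genes the filter on reads favours a clear top group. Its part in the contrast with all genes was not tested. Pinhead alone raised 9 ligands (36%) and lowered none, where 6.75% and 3.92% of all genes rose and fell. On top of Chordin it raised 10 (40%) and lowered none, where 6.46% and 4.25% did. Of those 9 and 10 ligands, 1 was the same gene copy, wnt8a.L (11.1% and 10%, where over all genes 16.9% and 17.7% of the genes raised were shared). A missing call is not a lack of effect where reads are few. For example, wnt3a.L was not called on top of Chordin at a log2 fold change of 3.79 ± 1.46, from 16 reads against 1. Summed over all 40 ligands, the level was 119 and 105 CPM in control, 206 and 193 CPM under Chordin, 254 and 288 CPM under Pinhead and 309 and 304 CPM under both, and most of these reads came from wnt5b.

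Among the ligands highest with Pinhead alone were wnt8a, wnt3a, wnt5a and wnt10a. The gene wnt11b.L, described further below, was also highest there. wnt8a, a canonical ligand of the ventral and posterior mesoderm, stood for its .L copy at 1.33 and 0.394 CPM in control, 0.0554 and 0 CPM under Chordin, 15.3 and 19.7 CPM under Pinhead and 1.56 and 1.9 CPM under both. Both Pinhead libraries lay well above all others. The log2 fold change of wnt8a.L was 4.31 ± 0.39 (SE) for Pinhead over control (adjusted p = 0.000247; 5.45 without library 1 and 3.71 without library 2), and both proteins against Pinhead gave -3.33 ± 0.35 (adjusted p = 3.47e-05). The copy wnt8a.S had 1 read in the 2 control libraries together, none with Chordin, 162 with Pinhead and 4 with both, a ratio of Pinhead to control of 154 (95% counting interval 27.2 to 6110). Mesoderm markers were high in the same 2 libraries, and their part in these values was not tested.

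wnt5a, a ligand that mostly acts on cell polarity and movement, was the most even of these. Its .L copy stood at 0.543 and 0.984 CPM in control, 0.775 and 0.928 CPM under Chordin, 16.8 and 16.4 CPM under Pinhead and 0.81 and 2.96 CPM under both. The copy wnt5a.S stood at 0.422 and 0.656, 2.1 and 2.02, 11.3 and 11.2, and 1.43 and 3.75 CPM in the same order of groups. The groups did not overlap for Pinhead, while libraries 7 and 8 differed from each other in both copies. Pinhead alone raised wnt5a.L by a log2 fold change of 4.44 ± 0.47 (adjusted p = 0.000659) and wnt5a.S by 4.38 ± 0.44 (adjusted p = 0.000512). On top of Chordin the values were 1.17 ± 0.54 for wnt5a.L and 0.34 ± 0.39 for wnt5a.S, which did not pass (adjusted p = 0.22 and 0.651; without library 7, wnt5a.L passed at 1.75). For wnt5a.S the difference between these Pinhead effects, the interaction, was -4.03 ± 0.61 (adjusted p = 0.00541). Without library 8 it was -4.9. Libraries with both proteins held less pnhd.L than those with Pinhead alone, and its part in this and the other interactions was not tested.

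wnt3a, a canonical ligand of the tail bud and posterior neural tube, and wnt10a were also highest with Pinhead alone. wnt3a.L stood at 0.664 and 1.77 CPM in control, 0.0554 and 0 CPM under Chordin, 11.1 and 6.81 CPM under Pinhead and 0.81 and 0.168 CPM under both. Pinhead raised wnt3a.L by 2.9 ± 0.51 (adjusted p = 0.00878), a call that was lost without library 1 (2.35) or library 5 (2.5) and stood at 3.75 without library 2. The copy wnt3a.S stood at 2.64 and 3.03 CPM under Pinhead and 0 to 0.302 CPM in the other 6 libraries. wnt10a.L stood at 0.603 and 0.197 CPM in control, 0.111 and 0.109 CPM under Chordin, 8.81 and 10.3 CPM under Pinhead and 0.187 and 0.0559 CPM under both, a log2 fold change of 4.52 ± 0.4 for Pinhead over control (adjusted p = 0.000241; 5.55 without library 1). Neither wnt3a copy nor wnt10a.L passed for Pinhead on top of Chordin (wnt3a.L passed at 4.56 without library 8). The values were 3.79 ± 1.46 for wnt3a.L, 2.16 ± 1.28 for wnt3a.S and 0.1 ± 0.98 for wnt10a.L. wnt3a.L had 16 reads with both proteins against 1 with Chordin, a ratio of 17.2 (counting interval 2.66 to 719). Its interaction was 0.89 ± 1.56 and did not pass (adjusted p = 0.752). With so few reads, wnt3a.L was not shown to rise only without Chordin. The interaction did not pass for wnt10a.L (-4.42 ± 1.24, adjusted p = 0.0519; -5.45, passing, without library 7), so the Pinhead effects with and without Chordin were not shown to differ for it.

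Among the ligands highest with both proteins were wnt1, wnt4, wnt8b, wnt2b and wnt11. The gene wnt5b.L, described further below, was also highest there. wnt1, a ligand of the midbrain-hindbrain boundary and dorsal neural tube, stood for its .L copy at 0.0603 and 0 CPM in control, 0 and 0.164 CPM under Chordin, 0 in both Pinhead libraries and 13.6 and 14 CPM under both. The .S copy stood at 6.6 and 8.17 CPM under both and at 0 to 0.328 CPM in the other 6 libraries. Nearly all reads of wnt1 thus came from libraries 7 and 8. wnt1.L was at least 154-fold higher with both than with Pinhead (469 reads against 0, with 3 counts over the group as the floor), and its ratio of both to Chordin was 168 (469 against 3 reads, 95% counting interval 57 to 816). wnt1.S was at least 82.9-fold higher with both than with Pinhead and at least 78.8-fold higher than in control.

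wnt4 was also highest with both proteins. wnt4.L, from a gene known in neural tube and kidney, stood at 0.422 and 0.59 CPM in control, 0.221 and 0.601 CPM under Chordin, 0.316 and 0.344 CPM under Pinhead and 8.47 and 7.83 CPM under both. It was higher with both than with Pinhead by a log2 fold change of 4.6 ± 0.39 (adjusted p = 1.07e-05) and than with control by 4 ± 0.37 (adjusted p = 1.48e-05). Its interaction was 4.89 ± 0.7 (adjusted p = 0.00418; 5.74 without library 4), so for wnt4.L the Pinhead effect with Chordin differed from that without. wnt4.S was at 4.8 and 4.59 CPM under both, had no reads with Pinhead and stood at 0.0554 to 0.492 CPM in the other 4 libraries.

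wnt8b, a ligand of the dorsal forebrain, had no reads in control in either copy. wnt8b.L stood at 0.0554 and 0.983 CPM under Chordin, 0.0527 and 0 CPM under Pinhead and 7.35 and 6.77 CPM under both, and wnt8b.S at 0.277 and 1.09, 0 and 0, and 4.49 and 3.47 CPM. The 2 Chordin libraries differed several-fold from each other in both copies. wnt8b.L was at least 74.7-fold and wnt8b.S at least 41.9-fold higher with both than in control. wnt2b.L stood at 4.8 and 4.98 CPM under both and at 0 to 0.601 CPM elsewhere, 3.53 ± 0.71 above Pinhead on the log2 scale (adjusted p = 0.00196). wnt11.L, a ligand of polarity and movement, rose in steps, from 0.181 and 0.328 CPM in control and 0 and 0.344 CPM under Pinhead to 2.38 and 1.69 CPM under Chordin and 6.54 and 6.1 CPM under both. Its log2 fold change over control was 2.98 ± 0.63 for Chordin (adjusted p = 0.00264) and 4.61 ± 0.57 for both (adjusted p = 9.28e-05). wnt1.L had 1 read in control and 0 with Pinhead, and wnt8b.L had 0 and 1. For wnt1.L and wnt8b.L the interaction therefore cannot decide whether the Pinhead effects differ. Their fitted values, and that of wnt4.S with no Pinhead reads, depend on a prior count. The interaction did not pass for wnt1.L, wnt4.S, wnt8b.L, wnt2b.L or wnt11.L (adjusted p = 0.102, 0.0661, 0.91, 0.146 and 0.207). It passed for wnt4.S without library 7 (7.78) or 8 (7.86) and for wnt11.L without library 6 (6.79).

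**Figure D2:**
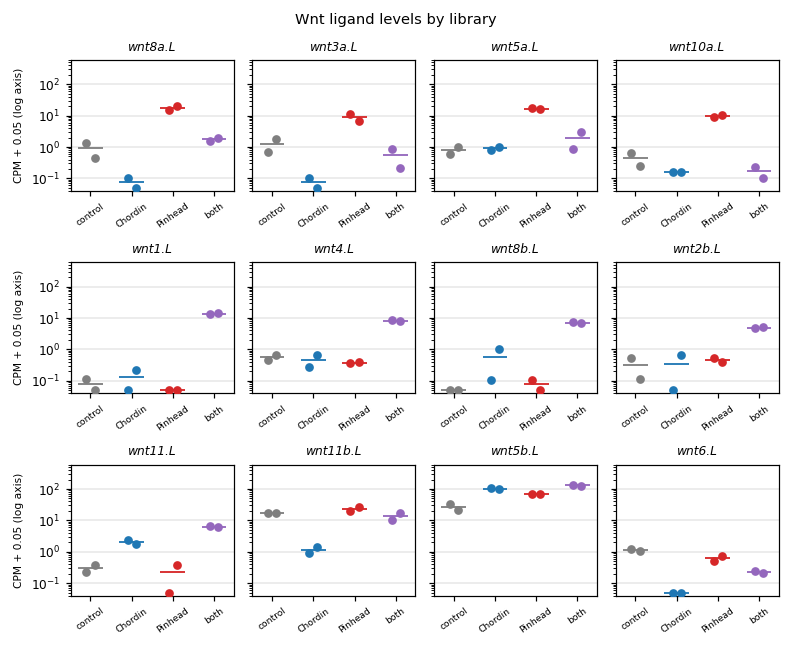
Levels of 12 Wnt ligand genes in each library, as CPM + 0.05 on a log axis; points are libraries (2 a group) and short lines group means. wnt8a.L, wnt3a.L, wnt5a.L and wnt10a.L are highest with Pinhead alone, wnt1.L, wnt4.L, wnt8b.L and wnt2b.L with both proteins, and wnt11b.L is lowest with Chordin alone at 0.886 and 1.37 CPM.

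wnt11b and wnt5b were the ligands with the most reads. wnt11b.L, the ligand of gastrulation movements in the frog, stood at 17.1 CPM in both control libraries, 0.886 and 1.37 CPM under Chordin, 20.4 and 26.2 CPM under Pinhead and 10.5 and 17.2 CPM under both. Chordin alone lowered it by a log2 fold change of -3.91 ± 0.31 (adjusted p = 5.79e-06). With both proteins it was higher than with Chordin by 3.62 ± 0.32 (adjusted p = 0.000205). The interaction was 3.17 ± 0.4 (adjusted p = 0.00221), since Pinhead without Chordin moved wnt11b.L by 0.44 ± 0.22, which did not pass (adjusted p = 0.244; passing at 0.45 without library 7 or 8). wnt5b.L rose with each protein, from 32.3 and 22 CPM in control to 108 and 98.7 CPM under Chordin, 70.6 and 70.3 CPM under Pinhead and 135 and 126 CPM under both. Its log2 fold changes over control were 1.92 ± 0.16, 1.37 ± 0.16 and 2.26 ± 0.16 (adjusted p = 7.09e-06, 0.00102 and 3.04e-06). The copy wnt5b.S rose less with Chordin, to 89 and 82.1 CPM from 56.4 and 53.5 CPM (0.64 ± 0.12, adjusted p = 0.00117).

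A few ligands were highest in control and Pinhead libraries. wnt6.L had 34 reads in control, none with Chordin and 6 with both, and was at least 13-fold lower with Chordin than in control. wnt9b.S stood at 1.33 and 1.18 CPM in control, 0.0554 and 0.0546 CPM under Chordin, 1.21 and 0.619 CPM under Pinhead and 0.311 and 0.112 CPM under both, and its ratio of control to Chordin was 22.9 (40 against 2 reads, 95% counting interval 5.93 to 195). Multiciliated cell markers had the same order of groups, while the epidermal sum was lowest with both proteins; their part in this was not tested. Several ligand genes lie next to each other in RefSeq's annotation of the assembly Xenopus_laevis_v10.1: wnt1.L beside wnt10b.L, wnt9a beside wnt3a and wnt10a beside wnt6, the last pairs in both subgenomes. Neighbours went apart in level in some comparisons. wnt10b.L had 0 to 0.187 CPM in every library where wnt1.L reached 14 CPM, wnt9a.L stood at 1.69 and 1.44 CPM in control and 0.844 and 2.82 CPM under Pinhead where wnt3a.L rose, and wnt6.L stood at 1.15 and 0.984 CPM in control and 0.475 and 0.688 CPM under Pinhead where wnt10a.L rose. Neither wnt9a.L nor wnt6.L passed for Pinhead over control (0.18 ± 0.53 and -0.89 ± 0.46, adjusted p = 0.872 and 0.263). In other comparisons neighbours moved the same way. wnt3a.L and wnt9a.L were both called lower with Chordin than in control, and with both proteins than with Pinhead (-4.23 and -1.89). wnt10a.L and wnt6.L also stood lower with both proteins than with Pinhead (75.9-fold and 3.15-fold).

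All 17 tested frizzled genes changed with Chordin alone, 11 up and 6 down, where 63.7% of all genes did. The same 11 and 6 were called in the same directions with both proteins, where 65.4% of all genes were called. Pinhead alone raised 2 and lowered 6, where 6.75% and 3.92% of all genes rose and fell. Summed over the 18 receptors, the level was 647 and 601 CPM in control, 507 and 608 CPM under Pinhead, 1200 and 1140 CPM under Chordin and 1120 CPM in each library with both.

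The receptors that Chordin raised were both copies of fzd1, fzd2, fzd3, fzd5 and fzd8, and fzd9.S. fzd5, a receptor of the eye field, moved most: fzd5.L stood at 0.905 and 1.25 CPM in control, 117 and 116 CPM under Chordin, 0.897 and 1.44 CPM under Pinhead and 50.6 and 40.4 CPM under both. Chordin raised fzd5.L by a log2 fold change of 6.76 ± 0.21 (adjusted p = 2.53e-08), and adding Pinhead to Chordin lowered it by -1.36 ± 0.14 (adjusted p = 0.000487). fzd5.S showed the same with 8.21 ± 0.23 and -1.55 ± 0.12 (adjusted p = 1.51e-08 and 0.000123), from 0.241 and 0.197 CPM in control to 68.9 and 65.8 CPM under Chordin and 24.2 and 21.9 CPM under both. fzd8, a receptor of the anterior neural plate, had the most reads of all, with fzd8.S at 101 and 98.5 CPM in control, 422 and 393 CPM under Chordin, 34.2 and 54.9 CPM under Pinhead and 375 and 366 CPM under both. Chordin raised fzd8.S by 2.03 ± 0.18 (adjusted p = 1.07e-05), and Pinhead alone lowered it by -1.17 ± 0.18 (adjusted p = 0.00436; -1.14, not passing, without library 1). Neural plate markers rose over control in the same libraries as these receptors. From Chordin alone to both proteins, however, their sum went from 1960 and 1840 CPM to 2800 and 2940 CPM, while the fzd5 copies fell. The part of these markers was not tested.

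fzd2 and fzd3 rose with Chordin whether or not Pinhead was present. fzd2.L stood at 9.05 and 7.81 CPM in control, 90 and 82.7 CPM under Chordin, 11.8 and 10.8 CPM under Pinhead and 86.8 and 96.9 CPM under both. Chordin raised it by a log2 fold change of 3.35 ± 0.12 (adjusted p = 6.54e-08), and the difference between both and Chordin was 0.09 ± 0.11 (adjusted p = 0.664). fzd3, known for axon guidance and neural crest induction, was highest with both: fzd3.S stood at 30.8 and 28 CPM in control, 49.5 and 53.4 CPM under Chordin, 32.8 and 28.7 CPM under Pinhead and 90.8 and 87 CPM under both. Both proteins raised fzd3.S over Chordin by 0.79 ± 0.1 (adjusted p = 0.00165).

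The receptors that Chordin lowered were both copies of fzd4, fzd6 and fzd10. fzd10.S fell from 113 and 99.3 CPM in control to 0.498 and 1.53 CPM under Chordin, and stood at 118 and 161 CPM under Pinhead and 16.8 and 18.7 CPM under both. fzd10.L fell from 61.4 and 52.6 CPM to 1.72 and 3.11 CPM, and stood at 125 and 144 CPM under Pinhead and 31.4 and 42.5 CPM under both. For fzd10.S the log2 fold change was -6.7 ± 0.31 for Chordin over control (adjusted p = 2.64e-07; -6.09 without library 3 and -7.69 without library 4) and -2.58 ± 0.23 for both over control (adjusted p = 1.09e-05). fzd10.L was higher with both than with Chordin by 3.93 ± 0.25 (adjusted p = 5.24e-05), and its interaction was 2.7 ± 0.31 (adjusted p = 0.00153). Multiciliated cell markers were likewise lowest with Chordin alone and higher with both, and their part was not tested. The copy fzd10.S had an interaction of 3.72 ± 0.4 (adjusted p = 0.00108; 3.11 without library 3 and 4.72 without library 4).

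fzd4.L fell with either protein alone and with both. fzd4.L stood at 22.7 and 22.1 CPM in control, 2.71 and 2.57 CPM under Chordin, 10.4 and 10.7 CPM under Pinhead and 11.3 and 9.96 CPM under both. Its log2 fold changes over control were -3.08 ± 0.15, -1.09 ± 0.13 and -1.07 ± 0.13 (adjusted p = 3.35e-07, 0.00125 and 7.96e-05). Pinhead thus lowered fzd4.L without Chordin and raised it on top of Chordin (2.01 ± 0.16, adjusted p = 0.000116), an interaction of 3.1 ± 0.2 (adjusted p = 0.000137). fzd6.L, a receptor known for skin hair polarity in the mouse, stood at 128 and 119 CPM in control, 16.2 and 8.74 CPM under Chordin, 66.5 and 61.5 CPM under Pinhead and 15.6 and 11 CPM under both. Chordin lowered fzd6.L by -3.31 ± 0.25 (adjusted p = 4.54e-06). fzd6.S had an interaction of 1.78 ± 0.21 (adjusted p = 0.00176), with levels of 14.7 and 14.2 CPM in control, 4.6 and 4.48 CPM under Chordin, 7.81 and 8.88 CPM under Pinhead and 8.66 and 9.34 CPM under both.

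**Figure D3:**
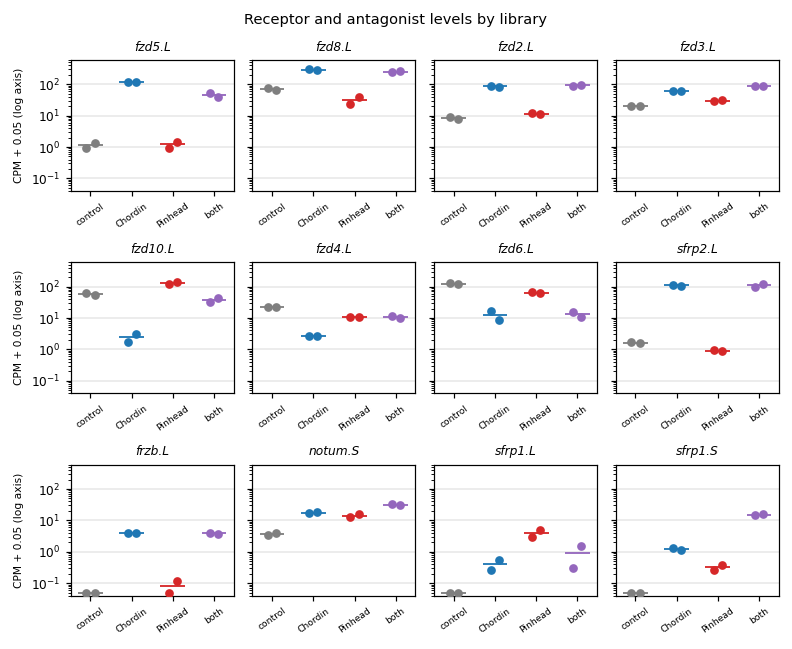
Levels of 7 frizzled and 5 secreted antagonist genes in each library, as CPM + 0.05 on a log axis; points are libraries (2 a group) and short lines group means. fzd5.L, fzd2.L, sfrp2.L and frzb.L are high in all 4 libraries with Chordin, fzd4.L and fzd10.L are lowest with Chordin alone, and sfrp1.L and sfrp1.S are highest in different groups.

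Among the 13 tested secreted antagonists Chordin raised 7 and lowered 2, Pinhead raised 3 and lowered 1, and both proteins raised 10 and lowered 1 against control, where 31.7% and 32%, 6.75% and 3.92%, and 33.3% and 32.1% of all genes did. Summed over all 19, the level was 79.2 to 91.2 CPM in control and Pinhead libraries, 509 and 508 CPM under Chordin and 387 and 383 CPM under both. Most of these reads came from sfrp2, which encodes a Wnt-binding protein. sfrp2.S stood at 63.7 and 64.8 CPM in control, 344 and 349 CPM under Chordin, 43.9 and 42.7 CPM under Pinhead and 210 and 177 CPM under both, and sfrp2.L at 1.63 and 1.51, 111 and 107, 0.897 and 0.826, and 95.4 and 122 CPM. Chordin raised sfrp2.L by a log2 fold change of 6.11 ± 0.17 (adjusted p = 1.55e-08) and sfrp2.S by 2.43 ± 0.1 (adjusted p = 1.3e-07). Adding Pinhead to Chordin lowered sfrp2.S by -0.84 ± 0.1 (adjusted p = 0.000865).

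frzb encodes another secreted frizzled-like protein. frzb.L had no reads in control, 3.93 and 3.99 CPM under Chordin, 0 and 0.0688 CPM under Pinhead and 3.92 and 3.64 CPM under both. It was at least 42-fold higher with Chordin and at least 40-fold higher with both than in control. frzb.S stood at 0.181 and 0.0656 CPM in control, 2.16 and 1.47 CPM under Chordin, 0.527 and 1.17 CPM under Pinhead and 1.68 and 1.23 CPM under both. Chordin raised frzb.S by 3.78 ± 0.65 (adjusted p = 0.000764; 4.65 without library 1). Pinhead alone gave 2.64 ± 0.74, which did not pass (adjusted p = 0.0515; passing without library 7 or 8, at 2.65 and 2.64), and neither did both over Pinhead (0.81 ± 0.48, adjusted p = 0.17). notum.S, from a gene for an enzyme that strips the lipid from Wnts and is itself a Wnt target, rose with each protein, from 3.44 and 3.81 CPM in control to 17.4 and 18.2 CPM under Chordin, 12.6 and 15.5 CPM under Pinhead and 33.1 and 30.8 CPM under both. Its log2 fold changes over control were 2.3 ± 0.16, 1.95 ± 0.16 and 3.14 ± 0.15 (adjusted p = 2.24e-06, 0.000156 and 4.02e-07). The copy notum.L was not called with Chordin (0.31) or Pinhead (-0.55) alone and rose with both proteins (0.76). The .L minus .S difference of notum changed by -1.88 ± 0.29 with Chordin and -2.33 ± 0.29 with Pinhead (limma, adjusted p = 0.000132 and 0.00033).

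The copies of sfrp1 were high in different groups. sfrp1.L had no reads in control, 0.221 and 0.492 CPM under Chordin, 2.9 and 4.88 CPM under Pinhead and 0.249 and 1.45 CPM under both. sfrp1.S had no reads in control either, 1.27 and 1.09 CPM under Chordin, 0.211 and 0.344 CPM under Pinhead and 14.9 and 15.6 CPM under both. The 2 copies had their highest libraries in groups that did not overlap. sfrp1.L was at least 39.9-fold higher with Pinhead than in control, and sfrp1.S at least 162-fold higher with both than in control. sfrp1.S was higher with both than with Chordin by a log2 fold change of 3.68 ± 0.24 (adjusted p = 0.000107) and than with Pinhead by 5.78 ± 0.31 (adjusted p = 1.92e-06).

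Among Dickkopf genes, dkk1 encodes a blocker of the Wnt co-receptor. dkk1.L was not tested for want of reads, with 1 control read against 12 for Chordin, 10 for Pinhead and 8 for both, ratios to control of 10.5 (95% counting interval 1.55 to 449), 9.5 (1.35 to 412) and 7.5 (1.01 to 333). dkk1.S stood at 2.9 and 4.2 CPM in control, 6.64 and 4.86 CPM under Chordin, 2.27 and 1.38 CPM under Pinhead and 2.06 and 2.8 CPM under both, and its values over control (0.7 ± 0.31, -0.93 ± 0.34 and -0.54 ± 0.33) did not pass (adjusted p = 0.0714, 0.124 and 0.182); without library 7 or 8 Chordin passed at 0.72 and Pinhead at -0.92. dkk3.S, a divergent member, rose with Chordin from 7.6 and 5.38 CPM to 13.5 and 12.2 CPM (0.98 ± 0.18, adjusted p = 0.00104). The copy dkk3.L was not called with Chordin (-0.38). With both over control dkk3.L fell and dkk3.S rose (-0.84 and 0.97), as they did with both over Pinhead (-1.02 and 0.86). sfrp5.S had 31 reads in control and none with Chordin, at least 11.8-fold lower.

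R-spondins were highest with both proteins. All 4 tested R-spondin genes rose with both over control, 2 rose with Chordin and 1 with Pinhead, where 33.3%, 31.7% and 6.75% of all genes did. rspo2.L stood at 0.845 and 0.787 CPM in control, 2.82 and 4.42 CPM under Chordin, 1.21 and 1.31 CPM under Pinhead and 27.7 and 28.8 CPM under both. It was higher with both than with Chordin by a log2 fold change of 2.96 ± 0.2 (adjusted p = 5.86e-05) and than with Pinhead by 4.48 ± 0.23 (adjusted p = 6.64e-07). Its interaction, 2.34 ± 0.42 (adjusted p = 0.0112), lost its call without library 1 (2.28) or library 2 (2.39). rspo3.L rose with Chordin, from 0.422 and 0.131 CPM in control to a mean of 12.7 ± 0.472 CPM (SD, n = 2) under Chordin and 16.9 and 19.4 CPM under both, and stood at 1.05 and 0.894 CPM under Pinhead; its log2 fold change for Chordin over control was 5.46 ± 0.31 (adjusted p = 7.78e-07; 6.53 without library 1). Summed over the 5 genes, the level was 1.77 and 2.53 CPM in control, 3.42 and 3.44 CPM under Pinhead, 17.3 and 18.8 CPM under Chordin and 47.4 and 50.7 CPM under both. rspo2.S and rspo1.L, at 0.328 to 1.81 CPM in all libraries, rose with both over control by 1.52 ± 0.46 and 1.19 ± 0.41 (adjusted p = 0.0168 and 0.0285). The call of rspo2.S was lost without library 1, 2, 7 or 8 (1.6, 1.45, 1.5 and 1.54) and that of rspo1.L without library 2 or 7 (0.87 and 1.04).

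Of the 10 feedback inhibitors, Chordin alone raised 4 and lowered 3, Pinhead alone raised 5 and lowered none, and both proteins over control raised 5 and lowered 1, where 31.7% and 32%, 6.75% and 3.92%, and 33.3% and 32.1% of all genes did. The 10 include axin1.L and axin1.S, which are not known as feedback targets. These axin1 copies are among the genes raised by Chordin and by both proteins. In 6 of the 10 both Pinhead libraries lay above all others (60%, against 10.9% of all genes). Pinhead on top of Chordin raised 5 and lowered none, where 6.46% and 4.25% of all genes rose and fell. Of the feedback inhibitors raised by Pinhead, axin2.L, apcdd1.S and rnf43.L rose in both settings. The other 2 calls with Pinhead alone were less firm: axin2.S (2.39 ± 0.35, adjusted p = 0.00362) missed the threshold without library 1 (2.48) or 2 (2.32), and znrf3.L (0.86 ± 0.16, adjusted p = 0.0113) without library 1 (0.73) or 5 (0.83). axin2.L, which encodes a scaffold of the complex that destroys beta-catenin, stood at 0.724 and 0.59 CPM in control, 3.43 and 5.08 CPM under Chordin, 10.5 and 12.8 CPM under Pinhead and 9.47 and 14.2 CPM under both. Its log2 fold changes over control were 2.68 ± 0.38 for Chordin, 4.13 ± 0.35 for Pinhead and 4.15 ± 0.35 for both (adjusted p = 0.000219, 0.000173 and 8.04e-06). Pinhead on top of Chordin raised axin2.L by 1.47 ± 0.26 (adjusted p = 0.00653; 1.2, not passing, without library 3).

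apcdd1, which encodes a membrane inhibitor of Wnt signalling, went apart by copy. apcdd1.S had 1 read in the 2 control libraries, 0.941 and 0.601 CPM under Chordin, 7.59 and 8.88 CPM under Pinhead and 4.24 and 5.76 CPM under both. Its ratio to control was 259 with Pinhead (273 against 1 read, 95% counting interval 46.1 to 10300) and 24.5 with Chordin (interval 4.05 to 1000). apcdd1.L fell with Chordin from 6.34 and 5.58 CPM to 1.77 and 1.47 CPM, and stood at 11.3 and 10.6 CPM under Pinhead and 7.41 and 12.7 CPM under both. Chordin lowered apcdd1.L by a log2 fold change of -1.87 ± 0.3 (adjusted p = 0.000507), and both over Chordin was 2.63 ± 0.29 (adjusted p = 0.000716).

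Rnf43 and Znrf3, the membrane ligases that remove frizzled receptors, were less alike. rnf43.L stood at 7.97 and 8 CPM in control, 2.88 and 2.95 CPM under Chordin, 16.8 and 18.4 CPM under Pinhead and 5.92 and 6.66 CPM under both. Chordin lowered it by a log2 fold change of -1.45 ± 0.17 (adjusted p = 6.11e-05), and Pinhead raised it by 1.14 ± 0.15 without Chordin (adjusted p = 0.00183) and by 1.11 ± 0.17 with it (adjusted p = 0.00364). The interaction of rnf43.L was -0.03 ± 0.23 and did not pass (adjusted p = 0.97). znrf3.L stood at 6.22 and 7.61 CPM in control, 8.25 and 7.32 CPM under Chordin, 12.9 and 12.2 CPM under Pinhead and 6.11 and 5.99 CPM under both, and was higher with Pinhead alone than with both by 1.06 on the log2 scale (both over Pinhead -1.06 ± 0.16, adjusted p = 0.000404). The axin1 copies, which are not known as feedback targets, stood at 6.03 to 12.3 CPM in all libraries, and axin1.L rose with Chordin by 0.91 ± 0.15 (adjusted p = 0.000557).

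Of the nuclear factors, the zinc finger genes sp5l.L, sp5l.S and sp5.L, copies of direct Wnt targets, were high wherever Pinhead was expressed, and sp5.S was high with both proteins. sp5l.L stood at 0.785 and 0.853 CPM in control, 5.26 and 6.77 CPM under Chordin, 35.9 and 39.5 CPM under Pinhead and 44.4 and 60.2 CPM under both. Pinhead on top of Chordin raised it by a log2 fold change of 3.12 ± 0.18 (adjusted p = 3.98e-05), less than without Chordin by the interaction of -2.39 ± 0.34 (adjusted p = 0.00395). sp5.L stood at 0.131 to 0.819 CPM in the 4 libraries without Pinhead and at 5.33 to 8.61 CPM in the 4 with it. sp5l.S stood at 0.724 and 0.0656, 1.33 and 1.53, 23.8 and 29.2, and 12.3 and 23.3 CPM in control, Chordin, Pinhead and both. The 4 libraries with Pinhead lay above the 4 without it in these 3 genes. sp5.S had no reads in control, 0 and 0.164 CPM under Chordin, 0.105 and 0.619 CPM under Pinhead and 1.99 and 2.63 CPM under both, so that a Pinhead library lay below a Chordin one. It was at least 24.7-fold higher with both than in control, and Pinhead alone against control did not pass (adjusted p = 0.129).

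lef1, a DNA-binding partner of beta-catenin, differed by copy. lef1.L stood at 17.7 and 13.6 CPM in control, 2.1 and 1.64 CPM under Chordin, 19.2 and 20.4 CPM under Pinhead and 6.42 and 5.31 CPM under both. lef1.S stood at 0.845 and 0.722, 2.27 and 2.4, 4.38 and 3.78, and 3.18 and 4.59 CPM. Chordin lowered lef1.L by a log2 fold change of -3.06 ± 0.21 (adjusted p = 2.44e-06) and raised lef1.S by 1.56 ± 0.33 (adjusted p = 0.00261). Pinhead raised lef1.S by 2.37 ± 0.32 (adjusted p = 0.00232), and lef1.L by 0.34 ± 0.17, which did not pass (adjusted p = 0.239).

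The Pinhead effect without Chordin and the one with Chordin share no libraries and can be set side by side. They come from unequal levels of pnhd.L, 1250 and 739 CPM with Pinhead alone and 429 and 486 CPM with both proteins. The part of that difference was not tested. Of the 75 genes, 12 were called in both settings in the same direction, 3 in opposite directions, 16 without Chordin and not with it, and 20 with it and not without (16%, 4%, 21.3% and 26.7%). Over all genes these shares were 1.49%, 0.852%, 8.34% and 8.37%. The 3 opposite ones were the receptors fzd4.L, fzd4.S and fzd6.S, which Pinhead lowered alone and raised on top of Chordin. The calls of fzd4.S and fzd6.S were not firm: Pinhead alone missed the threshold without library 1, 2 or 5 in both (fzd4.S at -0.76, -0.69 and -0.62, fzd6.S at -0.76, -0.82 and -0.69), and Pinhead on top of Chordin missed it without library 3 for fzd4.S (0.97) and without library 3 or 4 for fzd6.S (0.99 and 0.95). Of the 24 genes that rose without Chordin, 11 rose with it too, which is 45.8% of the 24 and 35.5% of the 31 that rose with it, beside 16.9% and 17.7% over all genes. By role these were 3 of 5 feedback inhibitors, 3 of 4 nuclear factors, 2 of 2 receptors, 2 of 3 antagonists, 1 of 9 ligands and 0 of 1 R-spondins, and differences between roles were not tested. The correlation across the 75 genes, which are not independent, was r = 0.22 (Spearman 0.23) between the log2 fold changes. By role r was -0.12 across 25 ligands, 0.49 across 17 receptors, 0.21 across 13 antagonists, 0.62 across 10 feedback inhibitors, 0.76 across 6 nuclear factors and -0.04 across 4 R-spondins, all within the same libraries. Of the 25 ligands, 7 without Chordin and 8 with it had at most 3 reads in a compared group. Fitted values of genes at 0 reads depend on a prior count. The part of these low counts and of the filter on reads in r and in the shared calls by role was not tested. The interaction passed in 15 genes upwards and 11 downwards, against 5.24% and 5.72% of all genes. These counts rest on single libraries: without libraries 1, 2, 3 and 4 they were 7, 8, 9 and 8 upwards and 3, 5, 3 and 3 downwards.

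**Figure D4:**
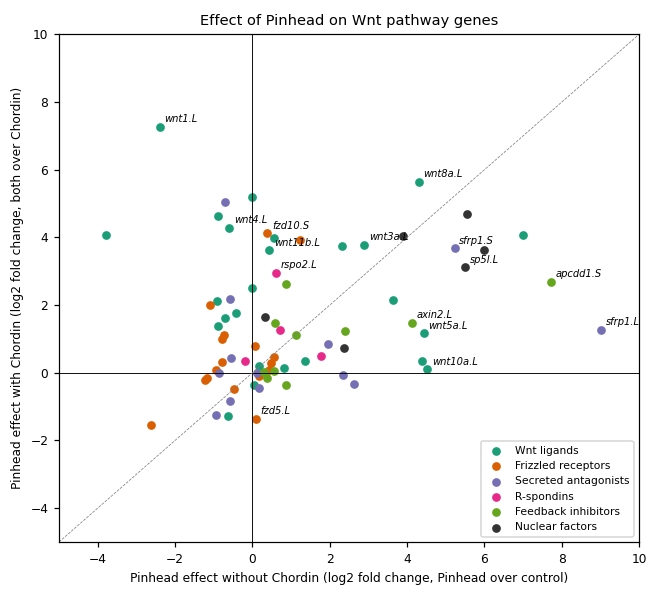
Log2 fold change of the 75 tested genes for Pinhead over control (horizontal) against both proteins over Chordin (vertical), coloured by role, with a dashed line of equal effects; for genes with very few reads in a group these are fitted values that depend on a prior count. Feedback inhibitors and nuclear factors such as axin2.L (4.13 and 1.47) and sp5l.L (5.51 and 3.12) lie to the upper right, whereas wnt10a.L and wnt5a.L lie far right and low, and wnt4.L lies high and near 0 on the horizontal axis.

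Because the frog carries 2 copies of most of these genes, the responses of 32 pairs could be compared in the same libraries. The difference between the copies' log2(CPM + 0.5) was tested with limma over all 6596 pairs in the table. The change of this difference passed for 20 pairs with Chordin (55.8% of all pairs did), 9 with Pinhead (9.85%), 17 with both over control (55.5%), 5 with both over Chordin (8.82%) and 20 with both over Pinhead (52%). Without library 1, 2 or 5 it was 5 pairs with Pinhead, without library 3 or 4 it was 3 with both over Chordin, and without library 6 it was 13 with both over Pinhead. Copies went opposite ways in lef1 and apcdd1 with Chordin. There the .L minus .S difference changed by -3.91 ± 0.31 for lef1 (adjusted p = 5.66e-07) and by -2.85 ± 0.29 for apcdd1 (adjusted p = 4.93e-06). For sfrp1 the change from Pinhead to both was -6.16 ± 0.43 (adjusted p = 3.25e-07), and for sfrp2 the change with Chordin was 3.3 ± 0.16 (adjusted p = 1.03e-08), the .L copy rising from the lower level. axin2 changed by 2.76 ± 0.34 with Chordin (adjusted p = 2.33e-05), where axin2.L rose and axin2.S stood at 1.39 and 1.25 CPM in control and 0.332 and 0.928 CPM under Chordin. Copies are near-identical in parts, and reads that fit both can be given to either or to none depending on how they were counted, so the levels of single copies are uncertain to that extent.

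**Figure D5:**
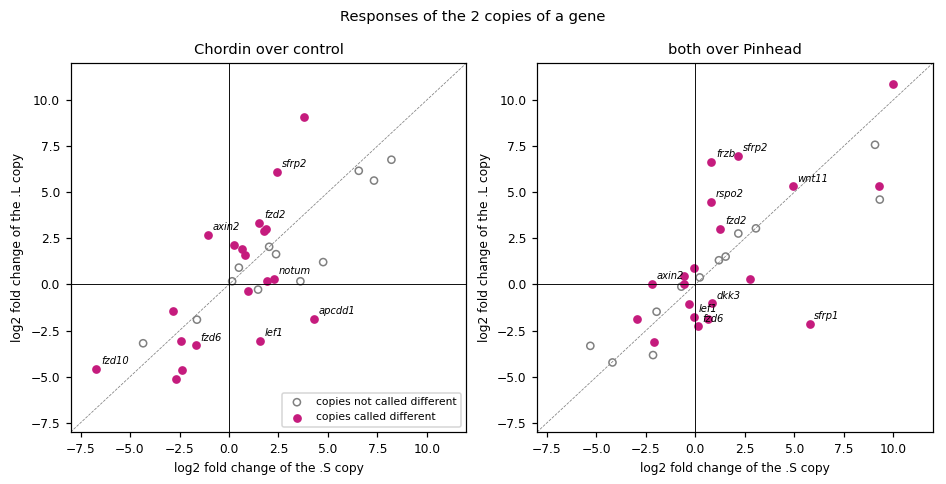
Log2 fold change of the .L copy (vertical) against the .S copy (horizontal) of 32 gene pairs, for Chordin over control (left) and both over Pinhead (right), with a dashed line of equal response; filled points are pairs whose copies were called different, and fitted values of genes with very few reads depend on a prior count. Pairs off the line include lef1 and apcdd1 on the left, with the .L copy falling and the .S copy rising, and sfrp1 on the right, with changes of -2.14 and 5.78.

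Other genes of the pathway were counted from 3 lists. Of 75 tested genes of the core machinery (co-receptors, the destruction complex, Tcf and Groucho factors, Wnt secretion), Chordin raised 35 and lowered 15, and Pinhead raised 10 and lowered 4, or on top of Chordin 6 and 1. Beside 63.7%, 10.7% and 10.7% of all genes, 66.7%, 18.7% and 9.33% of these core genes were called. The medians of their log2 fold changes were 0.43, 0.1 and 0.1, beside 0, -0.01 and 0.01 over all genes. Of 30 tested genes of planar polarity and Wnt co-receptors, Chordin raised 13 and lowered 14, Pinhead raised 5 and lowered none, and Pinhead on top of Chordin raised 10 and lowered 2 (medians -0.03, 0.14 and 0.33). The shares called were 90%, 16.7% and 40%, beside 63.7%, 10.7% and 10.7% of all genes. Of 37 tested textbook Wnt targets, Pinhead raised 18 and lowered 2 and on top of Chordin raised 18 and lowered 1, and Chordin raised 13 and lowered 7 (medians 2.34, 3.4 and 0.02). In the same order 54.1%, 51.4% and 54.1% of the targets were called, beside 10.7%, 10.7% and 63.7% of all genes. The medians 2.34 and 3.4 are both values of foxd3.S, a gene with very few reads. It stood at 0 CPM in control, 0 and 0.0688 CPM under Pinhead and 0.111 and 0.109 CPM under Chordin. Its Pinhead value did not pass (adjusted p = 0.504). Fitted values at so few reads depend on a prior count, so these medians do not measure the size of induction. The list also holds six3, a textbook gene that Wnt lowers rather than raises. six3.L is among those lowered by Pinhead (log2 fold change -1.37), and six3.L and six3.S are among those raised by Chordin (6.1 and 10.19). The counts above thus do not all stand for target induction or its reverse. Several of these targets also mark mesoderm or neural tissue.

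Within these lists, ror2, kremen2, tcf7l1 and wls moved in both copies. ror2.L, which encodes a receptor for Wnt5a, stood at 2.72 and 1.97 CPM in control, 4.87 and 5.3 CPM under Chordin, 8.54 and 8.88 CPM under Pinhead and 45.5 and 66.2 CPM under both, and was higher with both than with Chordin by a log2 fold change of 3.46 ± 0.2 and than with Pinhead by 2.68 ± 0.19 (adjusted p = 4.02e-05 and 4.32e-06). Its highest libraries were those where wnt5a.L stood at 0.81 and 2.96 CPM, not those where wnt5a.L was highest. kremen2.S, for a co-receptor of Dickkopf proteins, stood at 2.35 and 1.64 CPM in control, 0.0554 and 0.0546 CPM under Chordin, 9.23 and 11.2 CPM under Pinhead and 0.561 and 0.28 CPM under both, a rise of 2.34 ± 0.28 with Pinhead alone (adjusted p = 0.00123). tcf7l1.L, for a factor that represses Wnt targets in the absence of signal, stood at 93.7 and 95.5, 192 and 187, 48.7 and 66, and 214 and 227 CPM in control, Chordin, Pinhead and both, and rose with Chordin by 1 ± 0.13 (adjusted p = 0.000124). wls.L, for the carrier that brings Wnts to the cell surface, stood at 11.8 and 12.5, 21.9 and 21.4, 13.3 and 12.6, and 36.1 and 36 CPM, and rose with Chordin by 0.83 ± 0.11 and with both over Chordin by 0.74 ± 0.1 (adjusted p = 0.00011 and 0.002). The copy wls.S rose with Chordin by 1.32 ± 0.16 (adjusted p = 7.42e-05), but both over Chordin did not pass for it (0.23 ± 0.14, adjusted p = 0.364). These 4 genes were chosen from the lists after their values were seen.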

How the data were processed

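RNA from 8 explant libraries was sequenced, and the authors deposited raw read counts per gene for 2 sequencing runs of each library. Reads were aligned with HISAT2, per the submitters' processing notes; its version is not given in the sources used here, and neither are the counter, strand setting, build or gene models. The 2 runs were summed, and 1 row with no gene name was left out. Genes were filtered with filterByExpr (minimum count 10, minimum total 15), scaled by TMM and tested with edgeR 4.0.16 in one quasi-likelihood fit of all 8 libraries, with Benjamini-Hochberg adjustment over 23130 genes. Copy differences were tested with limma 3.58.1 on log2(CPM + 0.5), a test added after seeing the data. Alternatives were DESeq2 1.42.0, its size factors, no filter, the compared groups alone, the first run and each library left out. In each role the genes named were up to 6 with the smallest adjusted p and at least 1 CPM in a group, up to 3 with the highest level, their other copies, and up to 6 per direction for the interaction; some others were chosen after their values were seen. The members, lists and tests were chosen with earlier results of these data known. Folds against 0 counts use a floor of 3 counts over the group, and intervals cover counting error at 95%. The fits were also run on simulated counts in which each gene had the same spread in all groups. That run does not cover the uneven spread between groups seen here.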

Additional observations from a re-analysis of the deposited data

Results flagged for a closer look

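The effect of Pinhead differed between explants with and without Chordin, by the interaction in edgeR's quasi-likelihood test, in 26 of the 75 genes. Values are log2 differences, positive where Pinhead raised the gene more, or lowered it less, on top of Chordin than alone. The level of pnhd.L was lower with both proteins (429 and 486 CPM) than with Pinhead alone (1250 and 739 CPM), and its part in these differences was not tested.

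In 9 genes the call held with each library left out in turn: fzd10.L (2.7, adjusted p = 0.00153), fzd10.S (3.72, adjusted p = 0.00108; 3.11 without library 3, 4.72 without library 4), fzd4.L (3.1, adjusted p = 0.000137), fzd4.S (1.85, adjusted p = 0.00122), fzd6.S (1.78, adjusted p = 0.00176), sp5l.L (-2.39, adjusted p = 0.00395), wnt11b.L (3.17, adjusted p = 0.00221), wnt4.L (4.89, adjusted p = 0.00418; 5.74 without library 4), wnt5a.S (-4.03, adjusted p = 0.00541; -4.9 without library 8).

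In the other 17 genes the call was lost without at least 1 library, given by its number with the value then reached. Among them were apcdd1.L (1.76, adjusted p = 0.0229; lost at 1.65 without 1, 1.84 without 2, 1.87 without 3, 1.6 without 4, 1.8 without 5, 1.7 without 6), apcdd1.S (-5.04, adjusted p = 0.00949; lost at -4.13 without 1, -4.7 without 3; -7.46, still passing, without 2), axin2.L (-2.65, adjusted p = 0.00914; lost at -2.82 without 1, -2.52 without 2, -2.37 without 4). Frizzled genes among them were fzd3.S (0.73, adjusted p = 0.0176; lost at 0.65 without 1, 0.79 without 2, 0.65 without 3, 0.76 without 4), fzd5.L (-1.45, adjusted p = 0.0367; lost at -1.24 without 1, -1.69 without 2, -1.46 without 3, -1.48 without 4, -1.11 without 6), fzd8.L (1, adjusted p = 0.0444; lost at 0.92 without 1, 1.07 without 2, 1.01 without 3, 0.94 without 4). Another frizzled gene and the copies of lef1 were fzd8.S (1.03, adjusted p = 0.0304; lost at 1 without 1, 1.05 without 2, 1.06 without 3, 0.95 without 4), lef1.L (1.31, adjusted p = 0.022; lost at 1.1 without 1, 1.47 without 3, 1.11 without 4, 1.26 without 5), lef1.S (-1.64, adjusted p = 0.0389; lost at -1.76 without 1, -1.53 without 2, -1.7 without 3, -1.62 without 4, -1.53 without 5, -1.74 without 6). Secreted regulators were notum.S (-1.1, adjusted p = 0.0126; lost at -1.04 without 1, -1.18 without 2, -1.16 without 3, -1.09 without 4), rspo2.L (2.34, adjusted p = 0.0112; lost at 2.28 without 1, 2.39 without 2), wif1.L (2.74, adjusted p = 0.0208; lost at 2.89 without 1, 2.57 without 2, 3.1 without 3, 2.41 without 4, 2.26 without 5; 3.34, still passing, without 6). Ligands were wnt5a.L (-3.28, adjusted p = 0.0284; lost at -2.91 without 1, -3.75 without 2, -3.43 without 3, -3.17 without 4, -3.27 without 5, -3.3 without 6; -4.52, still passing, without 8), wnt5b.L (-1.04, adjusted p = 0.0188; lost at -0.99 without 3, -1.12 without 4, -1.04 without 5), wnt5b.S (-0.7, adjusted p = 0.0301; lost at -0.74 without 1, -0.66 without 2, -0.66 without 3, -0.78 without 4). The last 2 were wnt6.L (5.53, adjusted p = 0.0471; lost at 5.41 without 1, 5.65 without 2, 5.51 without 3, 5.51 without 4, 5.24 without 5, 5.82 without 6, 5.44 without 7, 5.61 without 8), znrf3.L (-1.23, adjusted p = 0.013; lost at -1.09 without 1, -1.16 without 3, -1.34 without 4). wnt6.L had no reads with Chordin, so its value depends on a prior count.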

How the results depend on the processing

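Counts of Wnt pathway genes called were within 1.5 times the reported ones under DESeq2, its size factors, no filter and the compared groups alone. With the first run alone, both over control lowered 9 instead of 14 and the interaction 6 instead of 11. Leaving out each library gave ranges of 28 to 36 raised and 16 to 23 lowered for Chordin, 16 to 30 and 1 to 8 for Pinhead, 40 to 48 and 11 to 17 for both over control, 20 to 35 and 3 to 4 for both over Chordin, 30 to 35 and 17 to 25 for both over Pinhead, and 7 to 18 and 3 to 16 for the interaction. Pairs whose copies differed ranged over 14 to 21, 5 to 9, 16 to 17, 3 to 6, 13 to 19 and 4 to 8 in the same order, and with a pseudocount of 2 CPM were 18, 10, 21, 7, 22 and 8; these alternatives to the copy test were chosen after seeing the data. Of 299 called values of named genes, 20 were no longer called by DESeq2, 28 with the first run, 12 in the compared groups alone, 3 each with DESeq2's size factors or no filter, and 57, 49, 41, 40, 28, 23, 8 and 14 without libraries 1 to 8. No paired analysis was possible because the groups share no replicate numbers. The compared groups alone were not refitted for the interaction, which needs all 4. With 2 libraries a group, calls rest on few degrees of freedom, and levels under about 1 CPM rest on few reads.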
